A study of Sus scrofa with 22 samples.

Results

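SOX9, KLF4, SPINK4, MUC20 and PROX1 are 5 genes of the intestinal crypt, the goblet cell and epithelial differentiation, described here in the small intestine of piglets given chemotherapy. They were found as the probes whose identifier maps to these pig symbols, which gave 14 probes of 43603 on the array and 5 genes of 35866. All 5 genes were among the 24760 genes tested. The 5 genes were chosen by their measured differences between treated and untreated piglets in these same arrays, so those differences are given as descriptions with their errors and no p-value.

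The tissue came from 22 crossbred specific-pathogen-free piglets (Large White × Danish Landrace), 3 days old when they entered 2 separate experiments. In the DOX experiment, 6 piglets received doxorubicin, a topoisomerase II inhibitor, as a single intravenous dose, and 6 were left untreated. In the BUCY experiment, 5 piglets received busulfan plus cyclophosphamide, both alkylating drugs, and 5 were left untreated. All were anaesthetised and fitted with an orogastric tube and a jugular catheter before treatment. Each piglet's RNA, labelled with Cy5, was hybridised on its own array against 1 Cy3-labelled pool of all samples, so every level below is a log2 ratio of piglet over pool. The labels give neither the segment of intestine nor the time from treatment to sampling.

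The lining of the small intestine is renewed from stem cells at the base of the crypts, whose daughters divide, leave the cell cycle and become absorptive enterocytes or secretory cells. Wnt signalling at the crypt base keeps cells dividing, and SOX9 is a transcription factor of that zone that is also needed for Paneth cells in mice. KLF4 is a zinc-finger transcription factor of non-dividing epithelial cells, needed in the mouse colon for goblet cells to mature. SPINK4 is a small Kazal-type protease inhibitor secreted by goblet cells. MUC20 is a membrane-bound mucin. PROX1 is a homeobox transcription factor that specifies lymphatic endothelium and is also made by some secretory cells of the gut epithelium.

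Between 59.6% and 72.5% of probes were well above background on each array, and no spot was saturated. BUCY treated piglets 2 and 3 stood apart from the other arrays: on principal component 2, with 25.7% of the variance, their scores were 55.4 and 67.6, and the array of piglet 3 was also the dimmest, with a median Cy5 intensity of 88. Among markers of absorptive enterocytes, 13 of 22 listed genes were on the array and all 13 were measurable. Their mean log2 ratio was -1.52 and -2.27 in BUCY treated piglets 2 and 3, and between -0.78 and 0.36 in the other 20 piglets. The BUCY differences of the 5 genes and the BUCY calls of the gene lists are therefore also given without those piglets, a choice made after the data were seen.

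**Figure D1:**
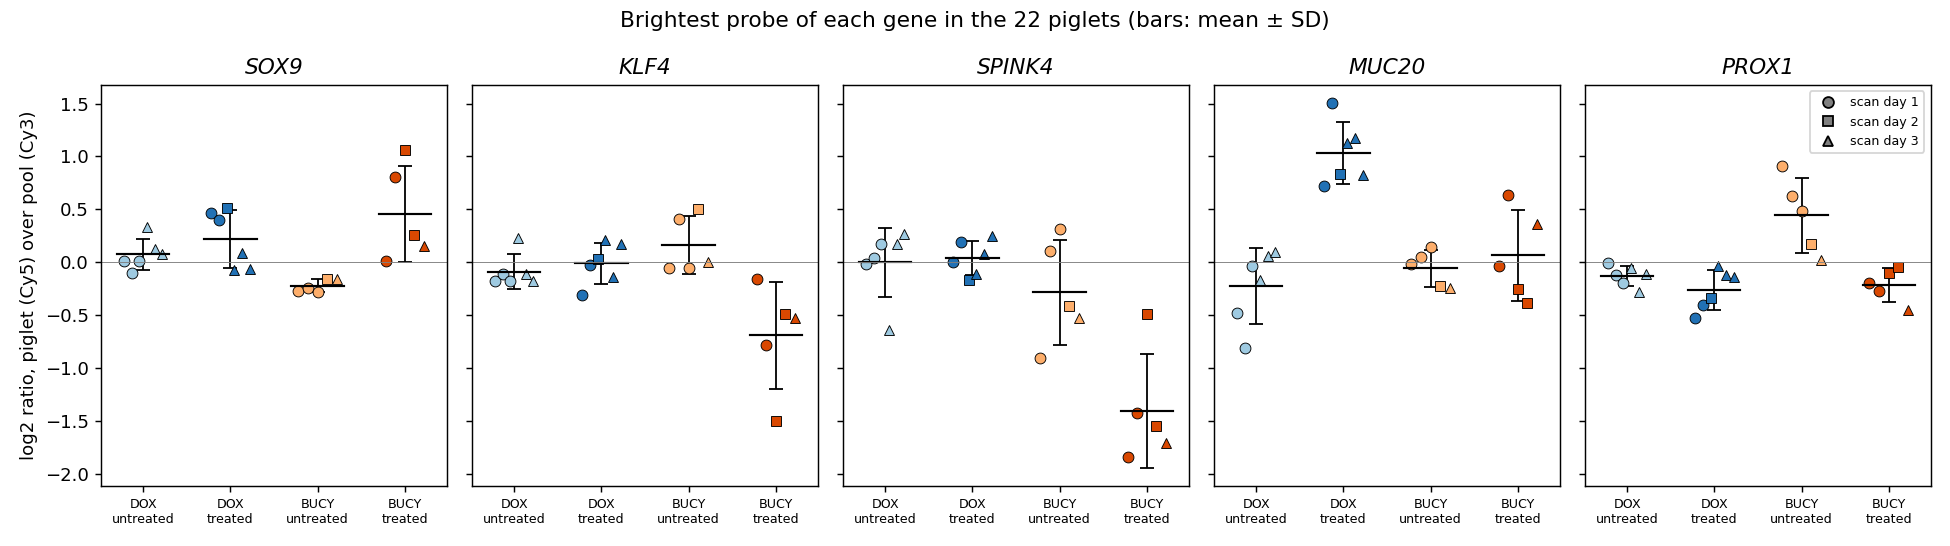
Each point is the log2 ratio of 1 piglet (Cy5) over the pool of all samples (Cy3) for the brightest probe of each gene, in the 4 groups of 5 or 6 piglets; horizontal lines are group means, bars are SDs and symbols mark the scan day. MUC20 was high in all 6 DOX treated piglets, and SPINK4 was low in 4 of the 5 BUCY treated piglets.

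MUC20 was the gene of the 5 that rose after doxorubicin, and the other 4 genes did not pass the test there. In the untreated DOX piglets its log2 ratio was -0.81 at the lowest, -0.10 at the median and 0.10 at the highest. In the DOX treated piglets it was 0.72 at the lowest, 0.98 at the median and 1.50 at the highest. Every treated piglet lay above every untreated one. The mean went from -0.22 ± 0.358 (SD, n = 6) to 1.03 ± 0.294 (SD, n = 6), a log2 difference of 1.25 (SE 0.179, 95% interval 0.88 to 1.62), or 2.38-fold. The gene is represented by 2 probes of like brightness, and the other probe gave 1.16. Within the scan days that held both DOX groups the difference was 1.56 on day 1 and 1.04 on day 3. With arrays centred on their medians in place of loess it was 1.13 and no longer past the threshold.

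The call rule was an adjusted p under 0.05 in a limma model across all genes. By it 0.848% of the 24760 genes were called for doxorubicin, 91 higher and 119 lower, and 1 of the 5 genes described here. Since the 5 were chosen on these contrasts, nothing is read from that count.

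In the BUCY experiment MUC20 showed no difference beyond its spread. Its log2 ratios were -0.03, 0.64, -0.26, -0.39 and 0.36 in the treated piglets 1 to 5, and -0.02, 0.05, 0.15, -0.23 and -0.24 in the untreated ones. The treated piglets lay on both sides of the untreated range, and the log2 difference was 0.12 (SE 0.196, 95% interval -0.28 to 0.53). Without treated piglets 2 and 3 it was 0.04. The BUCY difference minus the DOX difference was -1.13 (SE 0.265).

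MUC4, another membrane-bound mucin and the annotated gene next to MUC20 in the RefSeq annotation of Sscrofa11.1, was 1 of the 3 named genes with the pattern most like that of MUC20. Likeness was the root mean square difference of log2 ratios over 22 arrays after centring each gene, and it was 0.371 for MUC4, 0.349 for CD70 and 0.414 for EDDM3B, where MUC20's own variation was 0.585. In the DOX experiment MUC4 ranged from -0.37 to -0.07 in untreated and from 0.03 to 0.98 in treated piglets, with no overlap. Its log2 difference was 0.78 (SE 0.12) there and 0.11 (SE 0.132) in the BUCY experiment. Since MUC4 is named for its likeness to MUC20 over the same arrays, these values are a description with no test. MUC13, the other membrane mucin measured, had differences of 0.14 and 0.29 for doxorubicin and BUCY, and passed neither test.

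**Figure D2:**
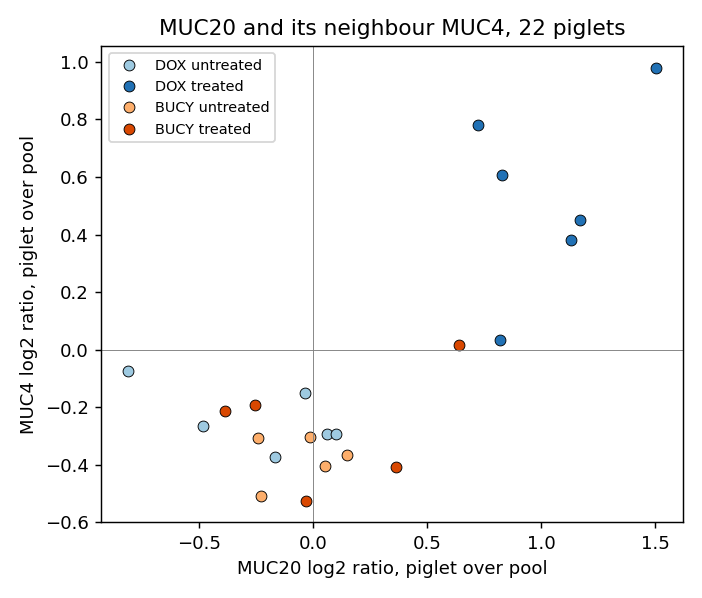
Each point is 1 of the 22 piglets, with the MUC20 log2 ratio over the pool on the horizontal axis and that of MUC4 on the vertical axis. The 6 DOX treated piglets hold MUC20 values from 0.72 to 1.50, and MUC4 values above 0.03.

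SPINK4 was the brightest of the 5 genes on these arrays, and it was lower after BUCY. Its 1 probe reached Cy5 intensities from 11109 to 112032. Its log2 ratios were -1.84, -1.43, -0.49, -1.55 and -1.71 in treated piglets 1 to 5, and -0.90, 0.11, 0.32, -0.42 and -0.53 in the untreated ones. Treated piglet 3 fell within the untreated range and the other 4 lay below it. The mean went from -0.29 ± 0.493 (SD, n = 5) to -1.40 ± 0.537 (SD, n = 5), a log2 difference of -1.12 (SE 0.233, 95% interval -1.60 to -0.63), or 2.17-fold lower. Without treated piglets 2 and 3 it was -1.42, and within the 3 scan days it ran from -1.47 to -0.60. In whole tissue, fewer cells of a type and less RNA per cell cannot be told apart.

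For doxorubicin the SPINK4 difference was 0.04 (SE 0.213, 95% interval -0.40 to 0.49). Treated piglets ran from -0.17 to 0.25 with a median of 0.04, inside the untreated range of -0.64 to 0.26. The BUCY difference minus the DOX difference was -1.16 (SE 0.316). That call was lost when any of 8 single arrays was left out, and also in the deposited values, where it was -1.05.

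KLF4 was lower after BUCY in all 5 treated piglets. Its brightest probe gave log2 ratios of -0.16, -0.78, -1.50, -0.49 and -0.53 in treated piglets 1 to 5, against -0.06, 0.41, -0.05, 0.50 and 0.00 in the untreated ones. The groups did not overlap, with treated piglet 1 closest to the untreated range and piglet 3 farthest from it. The mean went from 0.16 ± 0.273 (SD, n = 5) to -0.69 ± 0.503 (SD, n = 5), a log2 difference of -0.85 (SE 0.181, 95% interval -1.23 to -0.48), or 1.81-fold lower. Without treated piglets 2 and 3 it was -0.55 and stayed past the threshold. Within the 3 scan days it ran from -1.50 to -0.53.

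The 7 KLF4 probes did not all show this. The 4 brightest, with median Cy5 intensities from 4801 to 6043, gave BUCY differences from -0.93 to -0.83. The next, at 3038, gave -0.43 (SE 0.116). The 2 dimmest, at 833 and 918, were well above background on all 22 arrays and gave 0.08 (SE 0.189) and -0.06 (SE 0.168). Why the probes of this gene differed was not tested.

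For doxorubicin the KLF4 difference was 0.08 (SE 0.165, 95% interval -0.26 to 0.42). Treated piglets ran from -0.31 to 0.21 with a median of 0.01, and untreated ones from -0.18 to 0.23 with a median of -0.14. The groups overlapped along nearly their whole range, and all 7 probes gave differences between 0.01 and 0.18. The BUCY difference minus the DOX difference was -0.93 (SE 0.245). Without treated piglets 2 and 3 it was -0.63 and no longer past the threshold. That call was also lost when any of 3 single arrays was left out.

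**Figure D3:**
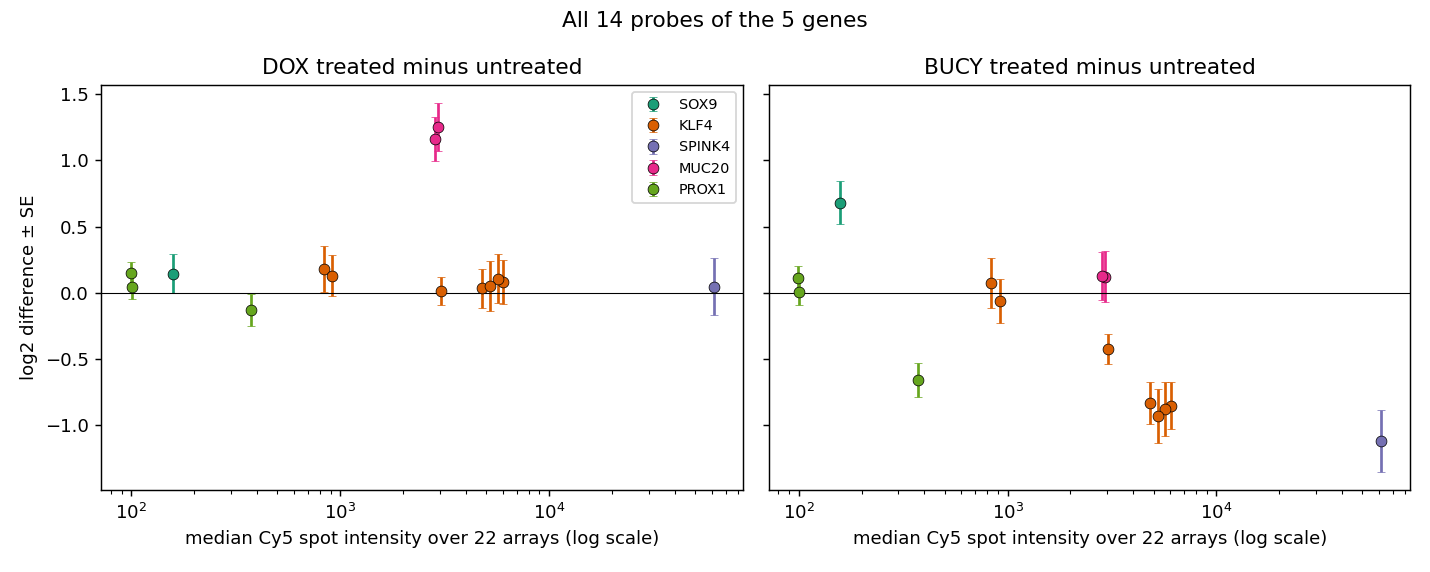
Each point is 1 of the 14 probes, with its median Cy5 intensity over 22 arrays on a log axis and its log2 difference between treated and untreated piglets (bars: SE), for DOX on the left and BUCY on the right. For BUCY, 4 bright KLF4 probes lie between -0.93 and -0.83, while the 2 dimmest KLF4 probes lie at 0.08 and -0.06.

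SOX9 was higher after BUCY, and its size rested on BUCY treated piglets 2 and 3. Its log2 ratios were 0.01, 0.80, 1.06, 0.26 and 0.15 in treated piglets 1 to 5, and -0.27, -0.24, -0.28, -0.16 and -0.16 in the untreated ones. The groups did not overlap, but only piglets 2 and 3 exceeded 0.26. The mean went from -0.22 ± 0.0612 (SD, n = 5) to 0.46 ± 0.452 (SD, n = 5), a log2 difference of 0.68 (SE 0.163, 95% interval 0.34 to 1.02), or 1.60-fold. Without those piglets it was 0.36 and no longer past the threshold. Within the 3 scan days it ran from 0.31 to 0.82.

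SOX9 was also dim. Its 1 probe had Cy5 intensities from 111 to 254.5 over local backgrounds from 53 to 88.5, although it was well above background on all 22 arrays. The size of its difference depended on the processing, and the scanner software's log ratio gave 1.47.

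For doxorubicin the SOX9 difference was 0.14 (SE 0.149, 95% interval -0.17 to 0.45), and it changed sign between scan days. It was 0.46 on day 1, with 2 treated and 3 untreated piglets, and -0.20 on day 3, with 3 of each. Treated piglets ran from -0.08 to 0.51 with a median of 0.24, and untreated ones from -0.11 to 0.33 with a median of 0.04, so the groups overlapped. The BUCY difference minus the DOX difference was 0.54 (SE 0.221) and did not pass the threshold.

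PROX1 was lower after BUCY, from untreated values that themselves stood above those of the DOX experiment. Its brightest probe gave log2 ratios of -0.20, -0.28, -0.10, -0.05 and -0.45 in treated piglets 1 to 5, and 0.91, 0.63, 0.48, 0.18 and 0.03 in the untreated ones. The groups did not overlap, with treated piglet 4 and untreated piglet 5 nearest each other. The mean went from 0.44 ± 0.352 (SD, n = 5) to -0.22 ± 0.159 (SD, n = 5), a log2 difference of -0.66 (SE 0.133, 95% interval -0.94 to -0.38), or 1.58-fold lower. Without treated piglets 2 and 3 it was -0.68, and within the 3 scan days it ran from -0.91 to -0.25.

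The other 2 PROX1 probes gave BUCY differences of 0.11 and 0.00. They were dim, with median Cy5 intensities of 99.3 and 100.5 over median local backgrounds of 61.5 and 67.5, and were well above background on 14 and 15 of the 22 arrays. Averaging all 3 probes gave -0.18, which was no longer past the threshold.

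For doxorubicin the PROX1 difference was -0.13 (SE 0.122, 95% interval -0.38 to 0.12), with -0.36 on scan day 1 and 0.05 on day 3. Untreated BUCY piglets stood above untreated DOX piglets by 0.57 (SE 0.127, 95% interval 0.31 to 0.84), and these groups did not overlap either. By scan day the untreated BUCY values were 0.67 on day 1 (mean, n = 3), 0.18 on day 2 (n = 1) and 0.03 on day 3 (n = 1). The untreated DOX means were -0.11 on day 1 and -0.15 on day 3 (n = 3 each). With scan day as a block the difference was 0.56. The untreated piglets of the 2 experiments differed widely: 25.2% of the genes tested were called between them, and PROX1 was the 1 of the 5 genes among these, a call that was lost at 0.49 with arrays centred on their medians. SOX9 was lower in untreated BUCY than in untreated DOX piglets by -0.30 (SE 0.156), with no overlap but not past the threshold. The same difference was 0.25 for KLF4, -0.28 for SPINK4 and 0.17 for MUC20, with overlapping groups. The BUCY difference minus the DOX difference was -0.53 (SE 0.18) and did not pass the threshold.

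Of all genes tested, 17.3% were called for BUCY, 2039 higher and 2238 lower, and 4 of the 5 genes described here, SOX9 higher and KLF4, SPINK4 and PROX1 lower. Fitted on the BUCY arrays alone, with the same differences, limma called 893 genes in all and 0 of the 5. Of the 5, 4 had an unadjusted p under 0.05, a count over genes chosen on this very difference. For the BUCY difference minus the DOX difference 5.89% were called, and 3 of the 5 genes, KLF4, SPINK4 and MUC20. Again nothing is read from these counts. The share of calls that were higher depended on scaling: with arrays centred on their medians in place of loess, it went from 47.7% to 16.8% for BUCY and from 43.3% to 30.3% for DOX. For the difference between the effects it went from 53.6% to 36.5%, and between the untreated groups from 51.7% to 37.7%. That centring put the median of all genes at -0.12 for BUCY, and no called difference of the 5 genes changed sign under it.

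**Figure D4:**
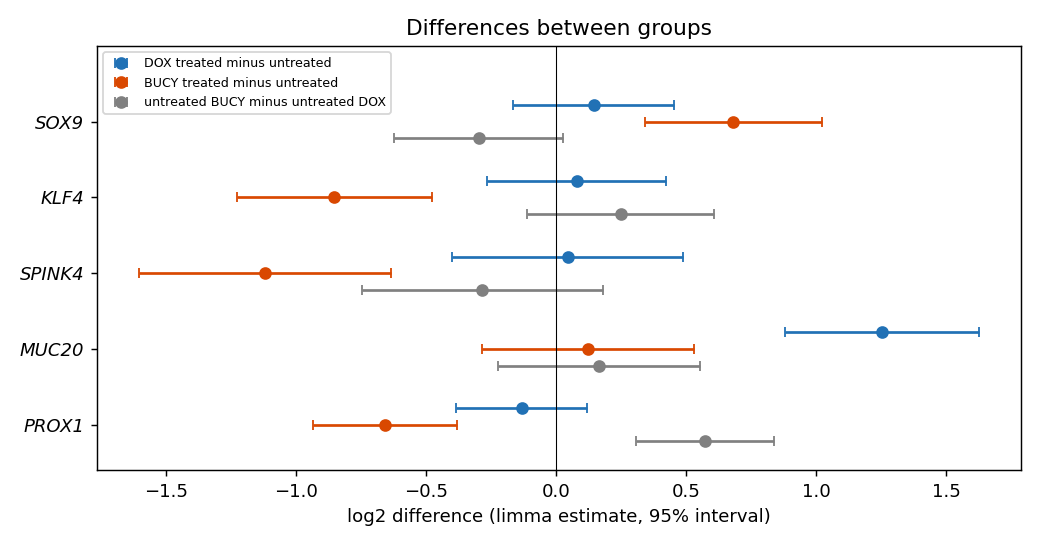
Points are limma estimates of the log2 difference for each gene's brightest probe and bars are 95% intervals, for DOX treated minus untreated (n = 6 and 6), BUCY treated minus untreated (n = 5 and 5) and untreated BUCY minus untreated DOX (n = 5 and 6). The DOX interval lies away from 0 for MUC20, and the BUCY intervals lie away from 0 for SOX9, KLF4, SPINK4 and PROX1.

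The 5 genes did not share 1 pattern across the BUCY treated piglets. Piglet 3 had the highest SOX9 ratio and the lowest KLF4 ratio of its group, and the highest SPINK4 ratio. Piglet 1 had the lowest SOX9 ratio, the highest KLF4 ratio and the lowest SPINK4 ratio. Setting out piglets by the enterocyte markers gives the same 2 piglets, 2 and 3, that had the most SOX9 and the least KLF4. SPINK4 and PROX1 differed as much or more from untreated without those 2, as given above. What part the state of these tissues has in the SOX9, KLF4, SPINK4 and PROX1 differences was not tested.

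Besides SPINK4, 6 goblet cell genes were measured, and limma called 0 of them for either drug, with 0 at an unadjusted p under 0.05 for doxorubicin and 2 for BUCY. Of all 24760 genes tested, 3419 had such an unadjusted p for doxorubicin and 8001 for BUCY. No such count of a list, here or below, was tested against these. CLCA1, a secreted goblet cell protein, had a BUCY log2 difference of -0.97 (SE 0.359; limma, adjusted p = 0.0662). SPDEF, a transcription factor of goblet and Paneth cells, had 0.29 (SE 0.241; limma, adjusted p = 0.422). The median over the 6 was 0.12 for BUCY and 0.14 for doxorubicin, against 0.00 and 0.01 over all genes. With arrays centred on their medians the BUCY median turned to -0.27 and CLCA1 was called at -1.56 (limma, adjusted p = 0.0279). The list named 18 genes, so 12 of them were not measured here.

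Few of the crypt stem cell genes were on the array, and none of the 3 measured, ASCL2, HOPX and MYC, was called for either drug by limma, with 0 at an unadjusted p under 0.05. ASCL2, a Wnt-driven transcription factor of intestinal stem cells, had differences of 0.25 for doxorubicin and 0.10 for BUCY. Genes of the cell cycle were measured better. For BUCY all 8 were higher and 7 were called, with a median of 1.06, among them BIRC5 at 1.72, CCNB1 at 1.68 and CDK1 at 1.29. Without treated piglets 2 and 3 limma called 5 of 8, and 2 of 8 with arrays centred on their medians. For doxorubicin 0 of 8 were called, 4 had an unadjusted p under 0.05, and the median was -0.39. All 8 were lower in untreated BUCY than in untreated DOX piglets, with a median of -1.67.

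Among 14 other transcription factors of epithelial differentiation, limma called 1 higher and 3 lower after BUCY, where 5 were higher and 9 lower. For doxorubicin limma called 0, with 3 at an unadjusted p under 0.05. Over all 24760 genes tested 17.3% were called for BUCY and 0.848% for doxorubicin, and 8001 and 3419 had an unadjusted p under 0.05. No count of a list was tested against these shares. ID2, an inhibitor of helix-loop-helix transcription factors, fell by 1.54 (limma, adjusted p = 5.82e-05). GATA6, a factor of the intestinal epithelium, fell by 0.90 (limma, adjusted p = 0.00214). KLF6, of the same family as KLF4, rose by 0.76 (limma, adjusted p = 0.0474). Without treated piglets 2 and 3, ID2 and GATA6 were still called, at -1.30 and -0.61, while KLF6 at 0.47 was not. With arrays centred on their medians limma called 0 higher and 5 lower for BUCY, and KLF6 was at 0.24.

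Of 14 genes of the Notch, Wnt and bone morphogenetic protein pathways, limma called 1 higher and 3 lower after BUCY. DKK3 rose by 0.64, and SMAD7, BMP2 and DKK2 fell by 1.26, 1.31 and 0.65. Without treated piglets 2 and 3, and so with fewer treated piglets, limma called 0 of the 14. DKK3 was then at 0.48, SMAD7 at -0.83, BMP2 at -0.85 and DKK2 at -0.57. For doxorubicin limma called 0 of the 14, with 2 at an unadjusted p under 0.05. SMAD7 restrains signalling by transforming growth factor beta, and DKK2 and DKK3 belong to a family of secreted Wnt modulators.

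Cell types in which PROX1 is known were also listed. Of 10 enteroendocrine genes, 7 were lower after BUCY and limma called 4. GHRL fell by 1.09, PCSK1 by 0.56, CHGB by 0.71 and SST by 0.43. Without treated piglets 2 and 3, and so with fewer treated piglets, limma called 0. These genes were then at -0.77, -0.51, -0.64 and -0.42. GHRL encodes ghrelin, and CHGB a protein of secretory granules. Of 6 endothelial genes, CCL21, a chemokine of lymphatic endothelium, fell by 0.98 and PECAM1 rose by 1.27 after BUCY. Neither was called without treated piglets 2 and 3, where CCL21 was at -0.69 and PECAM1 at 0.64. CCL21 also fell by 0.97 after doxorubicin (limma, adjusted p = 0.0376), for which PROX1 was not called. The mean ratio of the 6 ranged from 0.10 to 0.75 in untreated and from 0.08 to 0.54 in treated BUCY piglets.

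Markers of other cells moved with the BUCY group, and their part in the differences of the 5 genes was not tested. All 12 T and natural killer cell genes measured were lower after BUCY, with a median of -1.24. Limma called 10 of them, and 10 also without treated piglets 2 and 3. The mean ratio of the 12 ranged from -1.47 to -1.02 in treated and from -0.34 to 0.41 in untreated BUCY piglets. After doxorubicin 11 of the 12 were lower, with a median of -0.77, and 3 were called. Of 13 enterocyte genes, 10 were lower after BUCY and 6 were called, led by TMPRSS15 at -1.96, DPP4 at -1.67 and SLC15A1 at -2.03. Without treated piglets 2 and 3 limma called 0 lower and 2 higher, and the median turned from -0.58 to 0.40. The 2 called higher there were FABP1 at 1.67 and RBP2 at 0.99. TMPRSS15, DPP4 and SLC15A1 were then still lower, at -1.32, -0.89 and -0.73, but no longer called. For doxorubicin 10 of the 13 enterocyte genes were lower and 3 higher, and limma called 1, as lower. Of 6 general epithelial genes limma called 0 for BUCY, with 2 at an unadjusted p under 0.05. Of 4 genes listed for Paneth cells, 3 were higher for doxorubicin, while for BUCY 2 were higher and 2 lower. REG3G, an antibacterial lectin, rose by 2.35 for doxorubicin and 4.25 for BUCY, and ANG, an antimicrobial ribonuclease, rose by 1.29 for doxorubicin. With arrays centred on their medians limma called 0 of the 4 for doxorubicin.

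Of 6 macrophage and neutrophil genes, CD163, a scavenger receptor of macrophages, rose by 1.31 for doxorubicin and 1.44 for BUCY, and CD14, a receptor for bacterial lipopolysaccharide, by 1.26 and 0.81. AIF1 of the same list fell by 0.54 for BUCY. Of 6 targets of the p53 protein, 3 were higher and 3 lower for doxorubicin, and 4 were higher and 2 lower for BUCY. Among them CCNG1 rose by 0.66 for doxorubicin, and MDM2, SFN and BTG2 rose by 0.72, 2.31 and 0.54 for BUCY. For BUCY, UCHL1 of 5 neuronal and glial genes (4 higher, 1 lower) rose by 0.67. DES of 5 muscle and fibroblast genes (3 higher, 2 lower) rose by 1.02 for BUCY. COL1A2 of the same 5 (2 higher, 3 lower for doxorubicin) fell by 0.88 for doxorubicin. CD79A fell by 0.74 for doxorubicin, while the other 2 of 3 B and plasma cell genes were higher. AMY2 of 5 pancreatic genes (2 higher, 3 lower) fell by 1.23 for BUCY. PGC of 2 gastric genes (1 higher, 1 lower) fell by 0.20 for BUCY. The 1 tuft cell gene measured, ALOX5AP, had -0.11 for doxorubicin and -0.47 for BUCY and was not called.

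Several of these BUCY calls were lost without treated piglets 2 and 3, a fit that also holds fewer treated piglets. Without piglets 2 and 3 CD163 at 1.54, CD14 at 0.89, SFN at 1.39, AMY2 at -1.05 and REG3G at 4.18 were still called. The calls of AIF1 at -0.44, MDM2 at 0.40, BTG2 at 0.27, UCHL1 at 0.24, DES at 0.59 and PGC at -0.18 were lost. With arrays centred on their medians limma called 1 of 6 macrophage and neutrophil genes as higher for doxorubicin and 0 for BUCY, and 1 of 6 p53 targets for BUCY. It then called 0 of the neuronal, glial, muscle and fibroblast genes, CCL21, COL1A2 and CCNG1 lost their doxorubicin calls, and DKK3 and PGC lost their BUCY calls.

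The named genes most like each of the other 4 were found in the same way as for MUC20. For SPINK4, at differences from 0.429 to 0.449 against its own variation of 0.674, they were IL16, CD48 and DOK2. For KLF4, at 0.221 to 0.233 against 0.411, they were ITM2B, TMEM59 and OCLN, of which OCLN encodes the tight junction protein occludin. For SOX9, at 0.181 to 0.195 against 0.339, they were RPS10, LAMTOR2 and MAP3K7. For PROX1, at 0.221 to 0.230 against 0.336, they were EGF, ASPA and WDR48, and since EGF varied by 0.183 itself, small variation counts as likeness here.

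**Figure D5:**
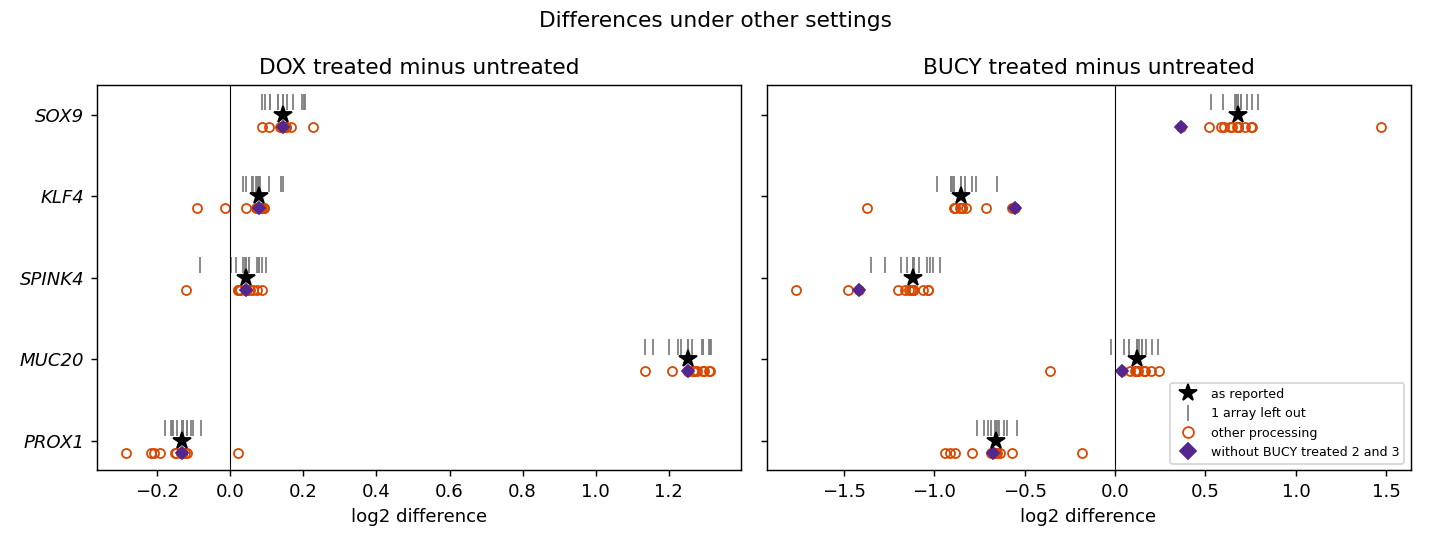
The log2 difference of each gene for DOX (left) and BUCY (right) is shown as reported (star), with each array left out in turn (ticks), under other processing (open circles) and without BUCY treated piglets 2 and 3 (diamonds). MUC20 stays between 1.13 and 1.32 for DOX, while SOX9 for BUCY runs from 0.36 to 1.47.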

How the data were processed

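The deposited files hold median spot and local background intensities of 2-colour arrays, quality flags (0 or 1) and a log10 ratio per spot, made with Agilent Feature Extraction 10.7.3.1 per the file headers. The deposited value table holds log2 ratios; limma is named in the submitters' processing notes, while how the authors normalised is not given in the sources used here. That table matched the recomputed ratios after quantile normalisation of both channels, with correlations from 0.999 upward, so Cy5 over Cy3 is its direction and each column is centred near 0 (medians 0.00146 to 0.0180).

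With limma 3.58.1 in R 4.3.3, intensities were background corrected (normexp, offset 50), normalised by loess within arrays with control spots at weight 0, and outlier spots were dropped. Each gene was represented by its brightest probe and tested where 5 or more arrays had Cy5 well above background. One model with 4 group means gave each difference, with Benjamini-Hochberg adjustment of p over 24760 genes; calls need an adjusted p under 0.05. The model was tested on simulated data. Only 15.4% of probes carry a symbol. The 5 genes and all 20 lists were chosen with earlier results of these data known. Named genes are the 5, up to 3 called genes of smallest p per list and drug, and the 3 most alike in pattern, and others were named after their values were seen. Replicates are separate piglets, and their number limits precision. Slide and scan day were checked as batches. The values of 1 called gene of the differentiation list are not reported here, though the list's counts include it.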

Additional observations from a re-analysis of the deposited data

Results flagged for a closer look

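In the untreated DOX group, replicate 4 lay far from the other 5 piglets for SPINK4, at -0.64 on the log2 ratio scale, and for KLF4, at 0.23. These were 2 of 20 combinations of gene and group checked, and chance flags about 1 in 20. The BUCY difference minus the DOX difference passed the limma test of that difference for KLF4 at -0.93, for SPINK4 at -1.16 and for MUC20 at -1.13. The 5 genes were chosen on these contrasts, so these values are descriptions.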

How the results depend on the processing

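No called difference of the 5 genes changed sign under any of 38 alternatives. Centring arrays on their medians in place of loess gave 89 genes called for DOX, 104 for the BUCY minus DOX difference and 3854 between the untreated groups. Of the 5 genes it called 0, 1 and 0 of these in turn by limma, with 1 and 2 at an unadjusted p under 0.05 where it called 0; the MUC20 value for DOX was 1.13 there. With slide as a fixed block 349 genes were called for DOX and 2298 for BUCY, and 1 of the 5 for BUCY minus DOX. That block takes out BUCY treated 2, the 1 array of its slide, and SOX9 lost its BUCY call at 0.52. With slide as a random block 355 were called for DOX. Without the arrays whose titles carry a suffix, 1482 genes were called for BUCY and 332 for BUCY minus DOX, and 2 of the 5 genes for BUCY, SPINK4 and PROX1, with KLF4 at -0.57 and SOX9 at 0.67 not called. Without BUCY treated 2 and 3, 500 were called for DOX, 1127 for BUCY and 732 for BUCY minus DOX, and 2 of the 5 genes, SOX9 and PROX1, between the untreated groups. Fitting each experiment alone gave 745 for DOX and 893 for BUCY, and limma then called 0 of the 5 genes for BUCY, with 4 at an unadjusted p under 0.05 and the same differences. Array weights gave 1260 for DOX. The cause of these shifts was not tested. Leaving out 1 array gave 119 to 355 genes called for DOX, 2280 to 6291 for BUCY, 939 to 2392 for BUCY minus DOX and 5247 to 6751 between the untreated groups. The DOX count moved by over 1.5 times without DOX treated 1 (131), 2 (131), 3 (119), 4 (355) or 6 (133), or untreated 1 (129). The BUCY count did so without BUCY treated 2 (2280) or 3 (2542). The BUCY minus DOX count did so without BUCY treated 1 (2392) or 2 (947), or DOX treated 6 (939). Of the 5 genes 1 to 4 were then called for BUCY minus DOX, with 1 called without BUCY untreated 2, BUCY treated 2 or DOX treated 6. For the other comparisons 1, 4 and 1 of the 5 were called for DOX, BUCY and the untreated groups whichever array was left out. Quantile normalisation of average intensities leaves log ratios as they are by construction, so that of both channels was added after the data were seen; SPINK4 then lost its BUCY minus DOX call at -1.06. No paired analysis was possible because replicate numbers were given in accession order and pair no piglets. SOX9 and the dim PROX1 probes lie near background, and whether this limits the size of their differences was not tested.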
